A study of Mus musculus with 8 samples.

Results

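The genes that write, remove and influence DNA methylation, several of which are mutated in clonal haematopoiesis, were examined for open chromatin in mouse haematopoietic stem cells. They were Dnmt1, Dnmt3a, Dnmt3b, Tet1, Tet2, Tet3, Asxl1, Idh1 and Idh2. Overlapping peaks of 8 ATAC-seq libraries were merged into 90736 regions, and a region was kept when its midpoint lay inside the span of 1 of the 9 genes or within 50 kb of it. This gave 134 regions, 44 inside a member gene and 90 beside one. Given the 9 genes and the called peaks, the choice of regions used positions only. The genes themselves were chosen with earlier results of these data known. The region just inside the limit lay 49.8 kb from Dnmt1 (called in 8 libraries, median fold enrichment 10.4), and the region just outside lay 50.4 kb from Idh2 (called in 8 libraries, 7.73).

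The study sorted long-term haematopoietic stem cells (LT-HSC) from bone marrow of mice that carry Vav1-cre, which acts in blood cells, and an iMOS Bcl11a allele in a MUT or a WT form. Bcl11a encodes a zinc-finger transcription factor. The design asks about its role inside HSC, and about the effect of its overexpression on wild-type HSC. The 4 groups were MUT T1, MUT T2, WT T1 and WT T2, with 2 libraries each, and every mouse of either genotype carried the same Cre. Mice were 2 to 3 months old by the sample labels, or 3 months by the sample titles and the design text. What separates T1 from T2, which of them carries a transgene, the strain, the sex and whether the 2 libraries of a group came from separate animals are not given in the sources used here. P-values thus reflect the spread of these libraries alone, which may be technical.

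DNA methylation is the attachment of a methyl group to cytosine, mostly at CG dinucleotides. Dnmt1 copies the pattern to the new strand when DNA is replicated, Dnmt3a and Dnmt3b set new marks, and the Tet enzymes oxidise the mark and so start its removal, using the 2-oxoglutarate that Idh1 makes in the cytosol and Idh2 in mitochondria. Asxl1 is no methylation enzyme but a partner of the histone H2A deubiquitinase Bap1. In human blood, stem cells with a mutation in DNMT3A, TET2 or ASXL1 can expand with age into large clones, a state called clonal haematopoiesis, and mutant IDH1 or IDH2 makes 2-hydroxyglutarate, which inhibits TET enzymes.

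The lists held 62232 to 74785 peaks per library, and the genome background of the peak caller, used as a measure of depth, ranged from 1.89 to 3.38 fragments per position. The shallowest, which stood apart from the other 5, were MUT T1 replicate 2 (2.03) and the WT T2 libraries (2.45 and 1.89). The faintest peak in a list had a summit of 10 to 13 fragments. A region without a peak may therefore be open below that level, and openness per cell cannot be told apart from the share of cells with the site open. Of 10 HSC marker genes, 8 had a region over or within 1 kb of an annotated start in all 8 libraries. The same held for 0 of 5 B cell, 0 of 5 T and NK cell, 0 of 5 granulocyte and monocyte, 1 of 5 erythroid, 4 of 5 megakaryocyte, and 2 of 5 stromal and endothelial marker genes. Among all protein-coding genes with an annotated start the share was 65.1%. The marker lists are short and were not tested against it.

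All but 1 of the annotated starts of these genes lie in sequence richer in CG dinucleotides, the sites of DNA methylation, than the median start. RefSeq (GRCm38.p6, the same build as mm10) gave 14 promoter windows for the 9 genes, each from 250 bases before a start to 50 after it. The 5 sequences below, shown for the genes whose starts the results turn on, hold the bases before the start, 5′ to 3′ on the strand of the gene. They are Dnmt1 at chr9:20952980-20953229 (minus strand), the outer Dnmt3a start at chr12:3806730-3806979 (plus), the inner Dnmt3a start at chr12:3891494-3891743 (plus), Dnmt3b at chr2:153649199-153649410 (plus) and Tet2 at chr3:133544391-133544640 (minus). Capitals mark matches to the motifs named after them.
Dnmt1: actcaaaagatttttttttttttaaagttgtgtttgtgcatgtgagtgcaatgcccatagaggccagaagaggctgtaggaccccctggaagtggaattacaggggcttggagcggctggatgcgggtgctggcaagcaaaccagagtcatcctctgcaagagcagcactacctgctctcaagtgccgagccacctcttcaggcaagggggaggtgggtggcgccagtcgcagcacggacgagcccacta
Dnmt3a outer start: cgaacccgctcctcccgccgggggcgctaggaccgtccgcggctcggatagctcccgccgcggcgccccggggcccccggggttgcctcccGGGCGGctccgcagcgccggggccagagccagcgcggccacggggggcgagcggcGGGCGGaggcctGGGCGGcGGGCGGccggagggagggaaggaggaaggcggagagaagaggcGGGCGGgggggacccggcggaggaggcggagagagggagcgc
Dnmt3a inner start: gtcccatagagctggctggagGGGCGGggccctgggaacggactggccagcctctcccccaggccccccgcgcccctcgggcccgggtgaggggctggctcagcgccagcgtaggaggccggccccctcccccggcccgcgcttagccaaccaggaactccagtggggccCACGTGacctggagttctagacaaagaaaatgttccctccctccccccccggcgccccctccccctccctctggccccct
Dnmt3b: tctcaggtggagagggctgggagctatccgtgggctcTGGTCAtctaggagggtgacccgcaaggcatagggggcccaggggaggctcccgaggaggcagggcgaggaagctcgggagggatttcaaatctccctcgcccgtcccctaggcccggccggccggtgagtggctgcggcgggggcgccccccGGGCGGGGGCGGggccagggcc
Tet2: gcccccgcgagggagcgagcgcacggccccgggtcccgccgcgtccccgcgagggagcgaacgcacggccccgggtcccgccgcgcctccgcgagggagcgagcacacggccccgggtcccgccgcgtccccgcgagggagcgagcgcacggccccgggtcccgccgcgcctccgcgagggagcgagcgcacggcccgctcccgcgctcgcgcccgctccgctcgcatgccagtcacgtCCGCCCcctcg
The Dnmt3b sequence stops at the edge of the gene span. The others lie inside their gene's span, since RefSeq spans begin before these starts, and whether they are exonic in a longer transcript was not analysed here.

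Tet2 had 57 CG dinucleotides in its 300-base window, the 2 outer Dnmt3a windows, which overlap each other, had 46 and 47, and the inner Dnmt3a window had 18. Dnmt1 had 33, 12 and 2 in its 3 windows, Dnmt3b had 30, Idh1 had 23 in each of 2, Tet3 had 22, Idh2 had 20, Tet1 had 17 and Asxl1 had 13. The median over 32851 windows of all genes was 7.0. Both strands were searched for motifs of known factors, none of which contains another. BCL11A binds TGACCA, the SP and KLF factors bind GGGCGG, and NF-Y binds CCAAT. MYC binds CACGTG, CREB binds TGACGTCA, ETS factors bind CCGGAAGT, Gata2 binds AGATAA and RUNX factors bind TGTGGT. The palindromic NRF1 motif was searched as well. GGGCGG was in 12 of 14 windows and at all 9 genes, against 35.7% of all windows. TGACCA was at Dnmt3b alone, on the other strand and 213 bases before the start, against 13.6% of all windows. CACGTG was at the inner Dnmt3a start alone, 80 bases before it (7.15% of all windows). The NRF1 motif began at bases 15 and 30 of the transcripts from a pair of Dnmt1 starts (0.971% of all windows), and TGTGGT was at Asxl1 alone (16.8%). CCAAT was in 5 windows of Dnmt1, Idh1, Idh2 and Tet3 (37.4%), and TGACGTCA (1.79%), CCGGAAGT (3.89%) and AGATAA (11.2%) were in none. A match describes letters and is not evidence of binding.

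All 9 genes were open at a start in every library, among 11237 of 17274 protein-coding genes with an annotated start (65.1%) for which this held. Of the 134 regions, 81 (60.4%) were called in all 8 libraries, against 54.6% of all regions, and 18 (13.4%) in 1 library, against 11.6%. Inside the genes 26 of 44 (59.1%) were called in every library, and beside them 55 of 90 (61.1%). Of the 22 member regions over a start of any protein-coding gene, 21 were called in every library, and the share among all 10864 such regions was 95.4%. Regions called in every library had a median width of 970 bp, against 446 bp for the other member regions, and the same medians over all regions were 927 and 452 bp.

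**Figure D1:**
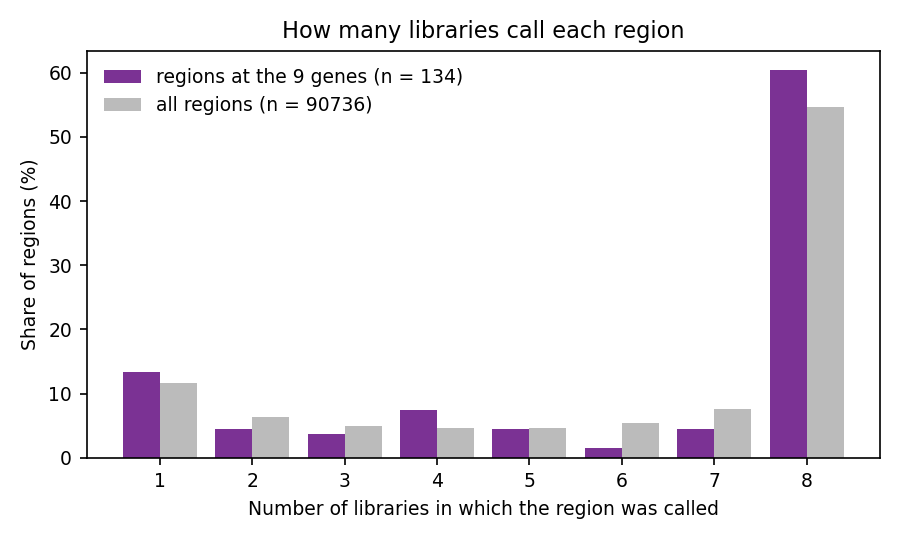
Share of regions (percent) by the number of libraries that called them, from 1 to 8, for the 134 regions at the 9 genes (purple) and all 90736 regions (grey). Most regions at the 9 genes were called in all 8 libraries (60.4%, against 54.6% of all regions), and the next largest share was called in 1 library.

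Fold enrichment is the authors' own value for each peak, the summit over its local background, and is used here only to describe and rank regions. Strong, weak and faint below refer to this ratio, not to the number of fragments at the summit. To compare libraries of different depth, each region called in all 8 was given a percentile within its library, from 0 for the weakest to 100 for the strongest of the same 49577 regions. The 81 member regions had a median percentile of 43.5, and 33 of them lay above 50. They ran from 1.91, at a region inside Tet3, to 98.6, at the start of the Tet3 neighbour Mthfd2, a mitochondrial folate enzyme gene.

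Among the genes that write the mark, Dnmt1, the maintenance enzyme, had the strongest start. Its start region (chr9:20952078-20953361) had fold enrichments in MUT T1 (8.93 and 12.7), MUT T2 (10.8 and 9.61), WT T1 (9.59 and 9.42) and WT T2 (11.6 and 11.6). Its percentile was 75.1 to 94.1 (median 81.8), high in all 8 libraries, and the groups overlapped. This region covers 2 of the 3 annotated Dnmt1 starts. The outermost start, with 2 CG dinucleotides in its window, had no region within 1 kb, and the nearest region lay 1389 bp away and was called in all 8 libraries (fold enrichment 6.78 to 7.76). Dnmt1 had 16 regions in all, 12 of them called in every library, but only 2 inside the gene.

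Dnmt3a, the de novo enzyme most often mutated in human clonal haematopoiesis, had start regions of low fold enrichment. The region over its outer starts (chr12:3806150-3808787, 2638 bp) was the widest start region of the 9 genes. It had fold enrichments in MUT T1 (5.43 and 5.55), MUT T2 (5.24 and 5.42), WT T1 (4.11 and 4.72) and WT T2 (6.24 and 4.88). Its percentiles were 7.07 to 24.9 (median 16.4), with the lowest value in WT T1 and the highest in WT T2. The inner start lies in a gap of 204 bp between 2 regions that were each called in all 8 libraries, 76 bp from the region before it (chr12:3890818-3891668, median fold enrichment 5.27) and 129 bp from the region after it (chr12:3891873-3893347, 4.68). The transcript that begins there encodes a shorter Dnmt3a protein, known in mouse from embryonic stem cells.

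The highest fold enrichments at Dnmt3a were not at its starts. A region before the gene (chr12:3791298-3792460) had fold enrichments in MUT T1 (11.6 and 15.5), MUT T2 (14.1 and 12.3), WT T1 (13.7 and 13.1) and WT T2 (15.7 and 16). With a median percentile of 98.1 it was among the strongest regions of every library (lowest percentile 94.9), and the groups overlapped. In fragments the 2 sites were closer, with summits of 115 to 147 here and 94 to 151 at the region over the outer starts. The strongest region inside the gene and away from a start (chr12:3855435-3856571) had fold enrichments in MUT T1 (6.28 and 6.74), MUT T2 (7.71 and 7.32), WT T1 (6.27 and 6.84) and WT T2 (7.26 and 7.83). Its mean percentile was 36.2 ± 3.02 in T1 and 45.2 ± 5.32 in T2 (SD, n = 4 libraries each). The difference of -8.99 did not pass (exact permutation p = 0.0571, Benjamini-Hochberg adjusted p = 0.998). Of 21 regions at Dnmt3a, 12 lay inside the gene and 7 of these were called in every library, as the map of Dnmt3a shows.

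**Figure D2:**
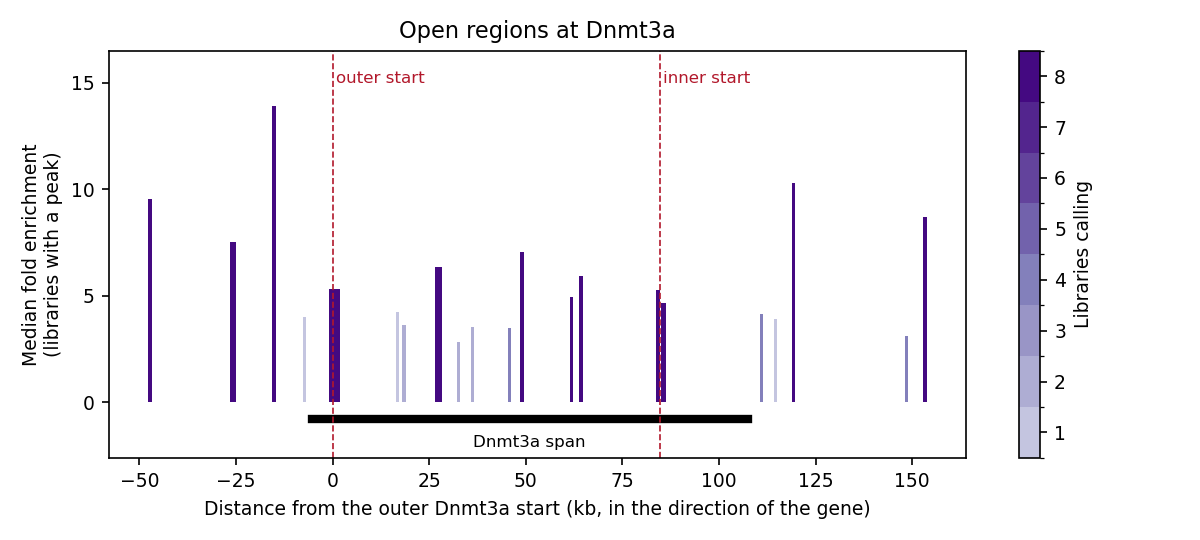
Regions at Dnmt3a drawn at their distance from the outer start (kb, in the direction of the gene), with the height giving the median fold enrichment over the libraries with a peak and the colour the number of libraries that called the region. Both starts (dashed lines) sit at regions of low fold enrichment called in all 8 libraries (5.33 and 5.27), while the tallest bar stands before the gene (13.9).

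Dnmt3b, the other de novo enzyme, had a higher fold enrichment at its start than Dnmt3a. Its start region (chr2:153648933-153650282) had fold enrichments in MUT T1 (7.38 and 8.91), MUT T2 (7.86 and 8.69), WT T1 (7.95 and 7.79) and WT T2 (11.1 and 10.1). Both WT T2 libraries were above the other 6, and its percentile there was 81.7 and 70.6, against 51.6 to 69.4 elsewhere. The median fold enrichment over all regions called in every library was also highest in WT T2 (8.12 and 8.36, against 7.11 to 7.87 in the other 6 libraries). A region inside Dnmt3b (chr2:153668597-153669195) had a higher fold enrichment still, at 8.90 to 13.7 and a median percentile of 84.4. Its summits held fewer fragments, 38 to 64, against 90 to 144 at the start region. In fragments the Dnmt3b start was close to the outer Dnmt3a start, where summits held 94 to 151. Of the 13 Dnmt3b regions, 10 were called in every library and 2 lay inside the gene.

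Among the genes that remove the mark, Tet3 had the strongest start and Tet1 the faintest. The Tet3 start region (chr6:83440818-83442131) had fold enrichments in MUT T1 (6.45 and 8.51), MUT T2 (7.54 and 7.36), WT T1 (6.12 and 6.93) and WT T2 (8.41 and 10.2). It varied more between libraries than any other start region, with percentiles of 31.3 to 71.2 (median 48.5). A second wide region at the upstream end of the Tet3 span (chr6:83455262-83457592), where no start is annotated, had a lower fold enrichment (4.46 to 6.62, median percentile 13.8). In fragments it was similar, with summits of 114 to 140, against 110 to 134 at the Tet3 start region. Inside Tet3, 7 of 10 regions were called in every library, led by chr6:83381441-83382338 (9.39 to 11.8). The genome-wide extremes of the member regions both lay at Tet3, which is flanked by the starts of Mthfd2, Mob1a, Bola3 and Dguok.

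Tet2, the eraser gene of clonal haematopoiesis, was the sparsest of the enzymes after Idh1. Tet2 had 7 regions, near the median of 8 over the windows of all protein-coding genes (quartiles 4 and 12). Of these regions, only 2 were called in every library, the start region and a region before the gene (chr3:133582848-133583939, 6.13 to 7.44). The start region (chr3:133543833-133545464) had fold enrichments in MUT T1 (5.17 and 5.77), MUT T2 (5.58 and 5.02), WT T1 (5.30 and 5.33) and WT T2 (6.48 and 6.58). Both WT T2 libraries were again highest, at percentiles of 28.1 and 26.9, against 15 to 20.5 in the other 6. The other 5 Tet2 regions changed from library to library without following the groups. The WT T1 libraries called 2 and 7 of the 7 Tet2 regions, at nearly equal depth (3.24 and 3.29 fragments per position).

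Among the Tet genes, Tet1 had the faintest start region, with fold enrichments in MUT T1 (4.55 and 5.10), MUT T2 (4.19 and 4.68), WT T1 (4.36 and 4.09) and WT T2 (5.34 and 6.0) (chr10:62885821-62887654). Its median percentile was 11.4, and both WT T2 libraries were highest here too (14.4 and 19.5, against 5.81 to 12.6 in the other 6). The strongest region inside Tet1 (chr10:62865156-62866045) reached 6.98 to 9.78 and a median percentile of 55.7. Of 17 regions at Tet1, 9 were called in every library and 6 in 1 library, the largest number of single-library regions among the 9 genes.

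The Idh genes lie among close neighbours, and the 2 annotated Idh1 starts had separate regions. The outer Idh1 region (chr1:65185982-65187363) also covers the start of Pikfyve, which encodes a lipid kinase, so that its strength cannot be assigned to either gene. It had fold enrichments in MUT T1 (8.69 and 11.3), MUT T2 (10.3 and 9.34), WT T1 (11.4 and 9.07) and WT T2 (10.7 and 13.0) (median percentile 79.2). The inner Idh1 start had a lower fold enrichment (chr1:65177938-65180093, 5.72 to 8.15, median percentile 39.4). In fragments it was not lower, with summits of 114 to 180, against 108 to 155 at the outer region. The Idh2 start region (chr7:80114148-80115807) had fold enrichments in MUT T1 (6.88 and 8.89), MUT T2 (8.03 and 7.77), WT T1 (7.51 and 7.80) and WT T2 (8.63 and 8.54), a median percentile of 54.1. Idh2 had the most regions of the 9 genes (22, of which 11 were called in every library) and Idh1 the fewest (4, of which 3), and only 1 region lay inside each gene. Asxl1, the chromatin partner, had a start region (chr2:153345169-153347056) with fold enrichments in MUT T1 (6.07 and 7.70), MUT T2 (7.13 and 6.49), WT T1 (5.92 and 6.02) and WT T2 (7.08 and 7.98), a median percentile of 36.2.

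In order of the median percentile, the start regions ran Dnmt1 (81.8), outer Idh1 (79.2), Dnmt3b (61.7), Idh2 (54.1), Tet3 (48.5), inner Idh1 (39.4), Asxl1 (36.2), Tet2 (19.6), outer Dnmt3a (16.4), the region before the inner Dnmt3a start (15.9), and Tet1 (11.4), with the region after the inner Dnmt3a start last (3.58 to 13.6 over the 8 libraries). Neighbours in this order overlapped in their ranges over the 8 libraries. Dnmt1 and Tet2 did not overlap (75.1 to 94.1 and 15 to 28.1). The order is that of the ratio and differs in fragments. Summits held 141 to 181 fragments at Dnmt1 and 91 to 133 at Tet2, which did not overlap. They held 110 to 134 at Tet3, 90 to 144 at Dnmt3b and 94 to 151 at the outer Dnmt3a start, which overlapped each other and Tet2. Over 8 libraries and 11215 genes, the start regions most like those of the members, by the mean absolute difference in percentile, were those of Magoh for Dnmt1 (2.30), Fyb2 for Dnmt3a (2.93), Slc25a30 for Dnmt3b (2.74), Ddr1 for Tet1 (1.09), Cela1 for Tet2 (1.70), Zfp639 for Tet3 (3.44), AI413582 for Asxl1 (2.55), Pcca for Idh1 (2.89) and Szrd1 for Idh2 (2.09). Each value is the smallest over these 11215 genes, so a small value was likely for any gene. Dnmt3a was taken at its outer starts, and Idh1 at its outer region, which is shared with Pikfyve.

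**Figure D3:**
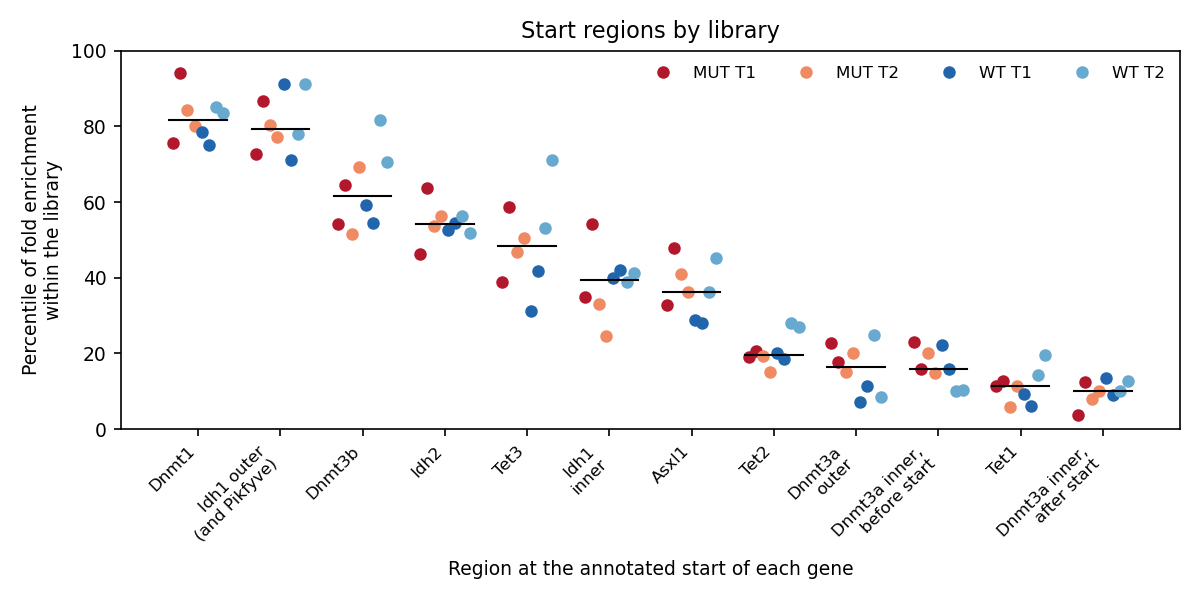
Percentile of the fold enrichment within the library (0 to 100, among regions called in all libraries) for each start region, ordered by its median over the 8 libraries (black line), with 1 point per library coloured by group. Dnmt1 and the outer Idh1 start sit at the top (medians 81.8 and 79.2), Tet1 and the Dnmt3a starts at the bottom (medians of 16.4 and less). Both WT T2 libraries are the highest at Dnmt3b, Tet2 and Tet1 and the lowest at the region before the inner Dnmt3a start.

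MUT against WT asks whether the Bcl11a genotype goes with a change of openness at these genes, and neither the strength of their regions nor their number passed a test. Of the 81 member regions, 0 had every MUT percentile above every WT percentile, against 1.73% of all regions, and 0 had every MUT percentile below, against 1.55%. The lowest Benjamini-Hochberg adjusted p over all 49577 regions was 0.900 at the member regions, from exact two-sided permutation tests of 4 libraries against 4 whose smallest possible p is 0.0286. At an unadjusted p under 0.05, 0 member regions passed, against 1624 of all regions. With 1 library left out, and so fewer to overlap, up to 4 member regions lay above (without WT T1 replicate 2) and up to 3 below (without MUT T1 replicate 2). Over the 12 start regions the difference in mean percentile ran from -6.6 at Dnmt3b to 5.96 at the outer Dnmt3a start (lowest exact permutation p 0.20, Benjamini-Hochberg adjusted p at least 0.948). At the Dnmt3b start the MUT mean was 59.9 ± 8.46 and the WT mean 66.5 ± 12.2, and at the outer Dnmt3a start the MUT mean was 18.9 ± 3.29 and the WT mean 13.0 ± 8.17 (SD, n = 4 libraries each).

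The number of regions called near each gene was also compared. Dnmt1 had 15 and 14 in MUT T1 and 15 and 15 in MUT T2, against 13 and 14 (WT T1) and 14 and 12 (WT T2) in WT libraries. The MUT mean of 14.8 ± 0.50 and the WT mean of 13.2 ± 0.957 regions (SD, n = 4 libraries each) differed by 1.5, which did not pass (exact permutation p = 0.0857, Benjamini-Hochberg adjusted p = 1.00 over 19067 genes). The groups met at 14, which 1 MUT and 2 WT libraries had. The difference was 1.5 at Asxl1, 1.25 at Dnmt3a and 1.00 at Tet3, 0 at Tet2 and Idh1, and -0.25, -0.50 and -1.25 at Dnmt3b, Idh2 and Tet1, all with an exact permutation p of 0.20 or more. None of the 9 genes passed at an unadjusted p under 0.05, as 163 of all genes did (0.855%, with 0.755% higher in MUT), and 0 of all genes passed after adjustment.

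**Figure D4:**
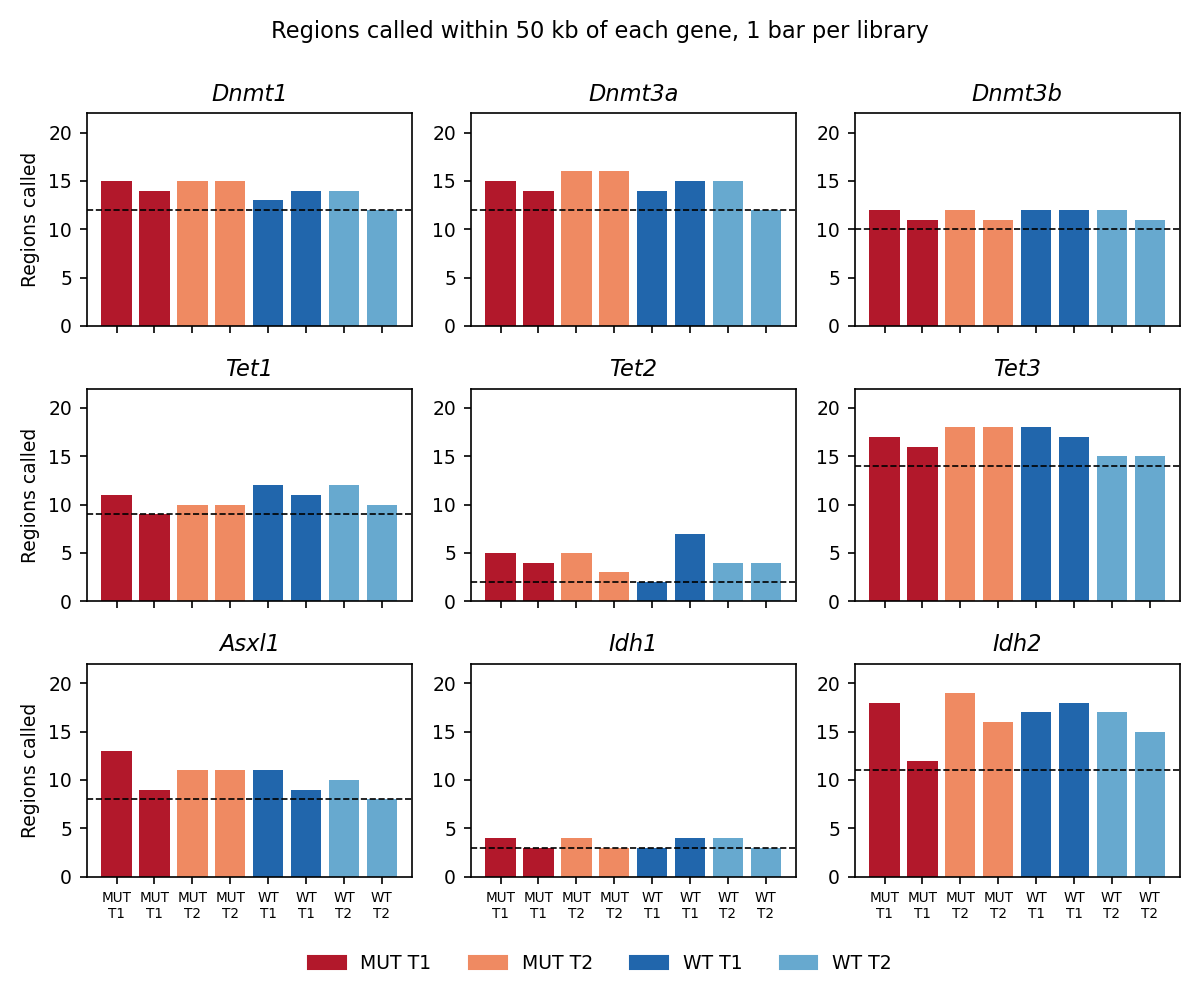
Number of regions called within 50 kb of each gene, with 1 bar per library in the order MUT T1, MUT T2, WT T1 and WT T2, and a dashed line at the number called in all 8 libraries. Most bars stand slightly above the line in every group, Dnmt1 has 14 to 15 regions in MUT and 12 to 14 in WT libraries, and Tet2 has between 2 and 7.

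Counting calls in place of strength, 1 region separated all MUT from all WT libraries, against 0.222% of all regions, and 0 did the reverse, against 0.0606%. It lay at chr9:20997028-20997503, 37.4 kb before Dnmt1 and 3.99 kb from the nearest gene, Mrpl4, which encodes a protein of the mitochondrial ribosome. It had peaks with fold enrichments of 3.90 and 4.92 in MUT T1 and 4.43 and 4.42 in MUT T2, and no peak in the 4 WT libraries. The summits held 22, 19, 27 and 25 fragments in the MUT libraries, against lowest summits of 10 to 13 in the lists. When each list was reduced to its strongest 62232 peaks, so that all had the same number, the region was called in only 2 libraries and no longer separated the genotypes. Scaled to equal depth it was called in the 4 MUT libraries and in no WT library. Backgrounds of the MUT libraries were 2.03 to 3.38 fragments per position, against 1.89 to 3.29 for the WT libraries, and their part in this call was not tested further. Without MUT T1 replicate 2 the count of regions gained in MUT was 2.

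The comparisons within a population use the same libraries again. Within T1, 1 member region was gained in MUT against WT, with a peak in each MUT T1 library and in no WT T1 library (0.746%, against 1.26% of all regions), which was the region near Mrpl4. Another 3 were lost, with no peak in either MUT T1 library and a peak in each WT T1 library (2.24%, against 2.13% of all regions). They lay beside Tet1 (chr10:62893575-62893885, no peak in MUT and 3.28 and 3.48 in WT T1), inside Tet3 (chr6:83409981-83410404, 3.14 and 3.19 in WT T1) and in Pomc, a hormone precursor gene near Dnmt3a (chr12:3955372-3955843, 2.98 and 3.12 in WT T1). The Tet3 region also had a peak in MUT T2 replicate 2 (4.04). Both shares were near those of all regions. With fewer calls required, the gained regions numbered 2 and 7 without replicate 1 and replicate 2 of MUT T1, and 2 and 4 without those of WT T1. The lost regions numbered 9, 8 and 6 without MUT T1 replicate 1, WT T1 replicate 1 and WT T1 replicate 2.

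Within T2, 7 member regions were gained in MUT against WT (5.22%, against 3.95% of all regions) and 0 were lost (against 0.457%). The strongest by the smaller of the 2 MUT T2 values lay inside Asxl1 (chr2:153371821-153372315), with 4.75 and 4.87 in MUT T2 and no peak in WT T2, and it also had a peak in MUT T1 replicate 1 (4.11) and none in the other 3 libraries. A region 14.0 kb beside Idh2 (chr7:80132335-80132837) had 6.07 and 4.66 in MUT T2 and no peak in WT T2, with 5.50 in MUT T1 replicate 1 and 5.87 in WT T1 replicate 1. The region near Mrpl4 was the third. The others lay in Nol4l near Asxl1 (chr2:153424083-153424735, 4.04 and 5.77 in MUT T2), in Pomc (3.38 and 3.1), in the zinc-finger gene Zfp710 near Idh2 (chr7:80057196-80057823, 4.12 and 3.05) and in S1pr2, a sphingosine-1-phosphate receptor gene near Dnmt1 (chr9:20973703-20974064, 2.95 and 2.91). The MUT T2 libraries were the deeper pair of this comparison (3.21 and 3.1 fragments per position, against 2.45 and 1.89 in WT T2), and the part of depth was not tested beyond 2 alternatives. Scaled to equal depth 7 member regions were gained, and with equal numbers of peaks 1 was. Without MUT T2 replicate 1 or replicate 2 the gained regions numbered 12 and 14, and the lost regions numbered 2 without MUT T2 replicate 1 and 8 without WT T2 replicate 2.

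T1 against T2 compares the sorted populations, and it shares its libraries with the comparisons above. Of the 81 member regions, 0 had every T1 percentile above every T2 percentile, against 1.37% of all regions, and 1 had every T1 percentile below, against 1.28%. This region lay beside Dnmt3b at chr2:153600148-153600894, with fold enrichments of 5.88 and 6.84 in MUT T1 and 6.6 and 6.21 in WT T1, against 7.32 and 6.99 in MUT T2 and 9.10 and 9.96 in WT T2. Its mean percentile was 33.7 ± 4.30 in T1 and 54.6 ± 12.8 in T2 libraries (SD, n = 4 each). The difference of -20.9 reached the smallest p the design allows (exact permutation p = 0.0286), as for 1310 of all regions, and did not pass after Benjamini-Hochberg adjustment over all regions (0.998). With 1 library left out, up to 3 member regions lay above (without WT T2 replicate 2) and up to 6 below (without MUT T1 replicate 2). No member gene had an exact permutation p under 0.80 for the number of regions in T1 minus T2, 52 of all genes passed unadjusted (0.273%, with 0.199% higher in T1), and 0 passed after adjustment. The start regions differed by -12.7 at Tet3 to 8.35 at the inner Idh1 start (lowest exact permutation p 0.114, Benjamini-Hochberg adjusted p at least 0.998).

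In calls, 0 member regions separated all T1 from all T2 libraries in the direction of T1 (against 0.0507% of all regions) and 0 in that of T2 (against 0.0265%). Among MUT libraries, 1 region was gained in T1 against T2 (0.746%, against 0.641% of all regions) and 1 was lost (0.746%, against 1.74%). The gained one lay inside Dnmt3a (chr12:3852667-3852923), with 3.05 and 3.54 in MUT T1 and no peak in MUT T2, and with 3.47 in WT T1 replicate 2 and 3.68 in WT T2 replicate 1. The lost one was the Pomc region near Dnmt3a, which thus appeared in 4 comparisons, with no peak in MUT T1, peaks in both libraries of MUT T2 and of WT T1, and none in WT T2. Among WT libraries 5 were gained in T1 against T2 (3.73%, against 3.90% of all regions) and 0 lost (against 0.632%). These were the regions beside Tet1, inside Tet3, in Pomc and in Zfp710, already described, and a region near Commd7 in the Dnmt3b window (chr2:153609526-153609992, 3.66 and 3.19 in WT T1). Leaving out 1 library gave up to 4 gained and 8 lost regions in MUT T1 against MUT T2, without MUT T1 replicate 2 and without MUT T1 replicate 1. It gave up to 11 gained and 7 lost regions in WT T1 against WT T2, without either WT T1 library and without WT T2 replicate 2.

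**Figure D5:**
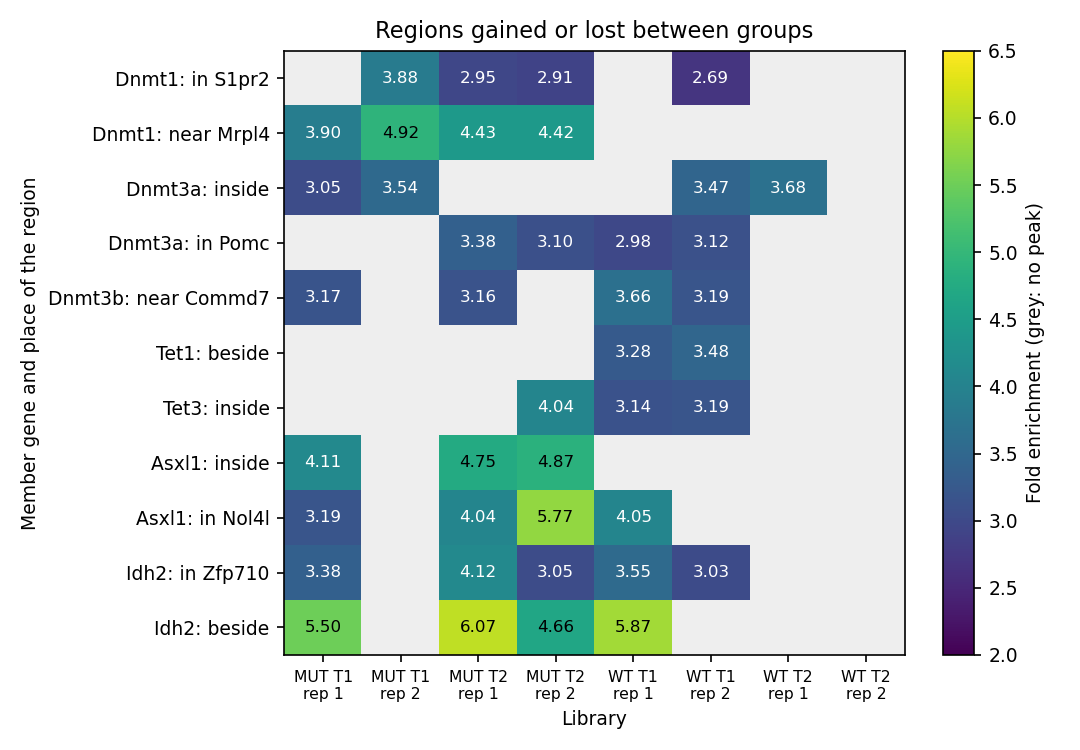
Fold enrichment (colour and number) of the 11 member regions gained or lost in at least 1 comparison, with 1 row per region, 1 column per library, and grey where the library had no peak. The region near Mrpl4 in the Dnmt1 window has a peak in each of the 4 MUT libraries and none in WT. The others follow neither genotype nor population throughout, and all values lie between 2.69 and 6.07.

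The 11 regions that differed in any comparison were weak and narrow (2.69 to 6.07, 257 to 653 bp), 3 of them lay inside a member gene and 0 covered a start. They were spread over 7 of the 9 genes, and Tet2 and Idh1 had none. These traits follow in part from the definition, since such a region lacks a peak in every library of a group. All member regions not called in every library had a median width of 446 bp. Of the 22 member regions over a start, 21 were called in every library and so could not differ. The mean fold enrichment of the 81 constant regions was highest in MUT T1 for 6 of them, in MUT T2 for 8, in WT T1 for 4 and in WT T2 for 63 (77.8%, against 63.2% of all constant regions). Fold enrichment thus ran higher in WT T2, the shallow group, across the genome, and its part in the members' values was not tested beyond the percentiles given above. Between the 2 libraries of a group the percentile of a member region differed by a median of 7.47 in MUT T1, 5.11 in MUT T2, 5.21 in WT T1 and 5.42 in WT T2, against 9.27, 6.98, 6.75 and 7.38 for all constant regions.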

How the data were processed

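ATAC-seq peak lists of 8 libraries (4 groups of 2) were used as deposited, each called on a single sample. The submitters' processing notes name Bowtie2, SAMtools, MACS2 and mm10 without versions or settings. A shift of cut sites for the transposase is not stated there. The authors' lists give each peak a score, a fold (a ratio, summit over local background), a −log10 p-value and a −log10 q-value. The lowest deposited −log10 q was 3.00. Summit pileups and backgrounds were solved from the deposited fold and −log10 p-value, and pileups above a −log10 p of 300 were left out.

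Peaks of chromosomes 1 to 19 and X were merged at 1 bp of overlap. Gene spans came from a RefSeq table of GRCm38.p6 with 21631 protein-coding genes, and starts from its promoter windows. Regions per gene and percentiles of fold were compared by exact two-sided permutation tests over 70 arrangements, with Benjamini-Hochberg adjustment over all 19067 genes with a region or all 49577 regions. With 2 libraries against 2 the smallest p is 0.333, so those comparisons have counts and no test. Python 3.11.15, SciPy 1.17.1 and pandas 2.3.3 were used, and the tests were tried on simulated data. The 9 genes and all gene lists were chosen with earlier results of these data known, and some genes of the lists are not reported here by name.

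Regions are given in full by a rule: those at each start, the strongest inside each gene among those called in every library, and those that differed in a comparison or whose percentiles did not overlap. The strongest and weakest member regions were added after their values were seen. Alternatives were a −log10 q of at least 5, equal numbers of peaks, equal depth, peaks covering at least 50% of the region, a distance of 10 kb, ranking by −log10 q, a replicate block, and leaving out each library.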

Additional observations from a re-analysis of the deposited data

Results flagged for a closer look

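Among 80 combinations of a group and a value, 5 had 1 library far from the others by Dixon's criterion. All concerned the number of regions called near a gene. In 4 of the 5 the other 3 libraries had the same whole number, so that any difference met the criterion and the usual chance rate of about 1 in 20 does not apply. Over the MUT libraries Dnmt1 was lowest in MUT T1 replicate 2, with 14 regions against 15 in each of the others. Over the T1 libraries that library was also lowest at Dnmt3b (11, against 12 in each of the others) and at Idh2 (12, against 17 and 18). Over the WT libraries Dnmt3b was lowest in WT T2 replicate 2 (11, against 12 in each of the others), and over the T2 libraries Tet1 was highest in WT T2 replicate 1 (12, against 10 in each of the others). MUT T1 replicate 2 and WT T2 replicate 2 had the lowest backgrounds of all libraries (2.03 and 1.89 fragments per position), whose part in these counts was not tested.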

How the results depend on the processing

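The counts of member regions that differed depended on the peak threshold and the distance. With equal numbers of peaks there was 1 gain in MUT T2 against WT T2, 3 gains and 0 losses in MUT T1 against MUT T2, 0 gains in all MUT against all WT and 1 gain in all T1 against all T2. Within 10 kb of the genes there were 0 gains in MUT T1 against WT T1, 1 in MUT T2 against WT T2, 0 losses in MUT T1 against MUT T2, 2 gains in WT T1 against WT T2 and 0 in all MUT against all WT, and 39 regions were called in every library, of the fewer regions then counted. With peaks covering at least 50% of the region there were 2 gains in MUT T1 against MUT T2 and 8 in WT T1 against WT T2. Losses in MUT T1 against MUT T2 numbered 2 at a −log10 q of at least 5 and 2 at equal depth. Every MUT percentile lay above every WT percentile at 1 region with equal numbers of peaks and at 2 ranked by −log10 q, and below at 1 at equal depth. The T1 percentiles lay below at 0 regions with peaks covering at least 50% of the region and 0 within 10 kb.

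Per-gene differences in the number of regions turned round as follows, all without passing a test. With equal numbers of peaks MUT minus WT was -0.25 at Dnmt3a and -0.25 at Asxl1, and T1 minus T2 was 0.750 at Dnmt3a and -0.25 at Tet1. With peaks covering at least 50% of the region MUT minus WT was 0.25 at Dnmt3b and 0.50 at Idh2, and T1 minus T2 was -0.50 at Tet1. At equal depth T1 minus T2 was -0.25 at Tet1 and -0.25 at Asxl1. The causes were not tested.

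Leaving out 1 library in turn gave 1 to 7 gains and 3 to 9 losses in MUT T1 against WT T1, 7 to 14 and 0 to 8 in MUT T2 against WT T2, 1 to 4 and 1 to 8 in MUT T1 against MUT T2, 5 to 11 and 0 to 7 in WT T1 against WT T2, and 1 to 2 gains in all MUT against all WT. Percentiles that did not overlap numbered 0 to 4 (MUT above), 0 to 3 (MUT below), 0 to 3 (T1 above) and 1 to 6 (T1 below), with fewer libraries to overlap. MUT minus WT at Idh2 ran from -1.42 to 0.917. T1 minus T2 ran from -1.17 to 0.167 at Dnmt3a, -0.167 to 0.833 at Tet1, -0.333 to 1.33 at Tet2, -0.333 to 1 at Asxl1 and -1.08 to 0.917 at Idh2.

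Under the alternatives run, 0 member genes and 0 member regions passed after adjustment. Whether the replicate numbers pair the libraries is not known. Same-numbered libraries of different groups gave correlations of 0.0183 to 0.0738 over 12 pairs. Each value was the same for replicate 1 and replicate 2, as deviations from a mean of 2 libraries give. The 12 values are thus not independent, do not measure the likeness of whole profiles and do not settle the pairing. With the replicate block the smallest p that the permutation test can reach lies above 0.05. No gene or region could pass there, so its counts of 0 carry no information. Depth limits what a missing peak shows, since lists begin at summits of 10 to 13 fragments.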

Other observations

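Partners of the 9 genes in DNA methylation were examined in the same way. A start region was called in all 8 libraries for 10 of 17 genes of the methylation machinery (58.8%, against 65.1% of all genes). These included Uhrf1, which brings Dnmt1 to newly replicated DNA, Tdg, the glycosylase that cuts out oxidised cytosines, and Mbd3 and Mbd4. Mbd1, Mbd2, Dnmt3l, Cxxc4, Cxxc5 and Wt1 were among those with no such region. Of 176 regions near these genes 59.7% were called in every library. In MUT T1 against WT T1, 1 of them was gained (0.57%, against 1.26% of all regions) and 9 were lost (5.11%, against 2.13%), with 3 losses each at Cxxc5 and Wt1. In MUT T2 against WT T2, 7 were gained (3.98%, against 3.95% of all regions) and 2 lost (1.14%, against 0.457%). A single region at Wt1, which encodes a partner of Tet2, had a peak in each MUT library and in no WT library (0.57%, against 0.222% of all regions). These counts have no test.

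In isocitrate and 2-hydroxyglutarate metabolism, 6 of 8 genes had a start region called in every library (75%), among them D2hgdh, whose enzyme breaks down 2-hydroxyglutarate, Sdha, Sdhb and Fh1, but not Idh3a. Of 63 regions 61.9% were called in every library, with 0 gained and 1 lost in MUT T1 against WT T1 (1.59% lost), and 1 gained and 0 lost in MUT T2 against WT T2 (1.59% gained), beside the same shares of all regions given above (2.13% and 3.95%). Among 29 further genes mutated in human clonal haematopoiesis, 21 (72.4%) had such a start region, and Npm1, Stag2, Rad21, Phf6, Setbp1, Bcorl1 and Asxl3 were among those that did not. Of their 342 regions 55.6% were called in every library. There were 2 gained (0.585%, against 1.26% of all regions) and 11 lost regions (3.22%, against 2.13%) in MUT T1 against WT T1. In MUT T2 against WT T2 there were 14 gained (4.09%, against 3.95%) and 5 lost (1.46%, against 0.457%). A region at Gata2, a factor of stem cell maintenance, had a peak in no MUT library and in each WT library (0.292%, against 0.0606% of all regions). No gene of these lists reached an unadjusted exact permutation p under 0.05 for its number of regions in MUT minus WT or T1 minus T2.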
